A study of Mus musculus with 4 samples.

Results

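The genes that encode the proteins of the cytosolic ribosome were examined by H3K4me3 chromatin immunoprecipitation sequencing (ChIP-seq) in mouse gastrocnemius, a limb muscle of the calf. Members were the protein-coding genes whose GENCODE symbol begins with Rpl or Rps followed by a number, by p and a number (the stalk proteins) or by a. Ribosomal S6 kinases (10 genes named Rps6k) and 6 symbols that carry the pseudogene suffix were left out. The rule found 86 members among 21755 protein-coding genes of the 19 autosomes and the X chromosome. By name, 43 encode proteins of the large subunit, 31 proteins of the small subunit and 3 the stalk proteins Rplp0, Rplp1 and Rplp2. A further 8 are paralogues (Rpl3l, Rpl7l1, Rpl10l, Rpl22l1, Rpl36al, Rpl39l, Rps27l and Rps27rt), and 1, Rps19bp1, encodes a protein that binds Rps19 and is not a ribosomal protein.

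The mice were B6CASTF1/J females, adult at 2 months of age, which are F1 hybrids of C57BL/6J and CAST/EiJ with no other treatment or allele named. The 4 libraries formed pool E (biological replicate 1) and pool F (biological replicate 2), each a pool of 2 biosamples that was sequenced as 2 technical libraries. All libraries shared tissue, sex, age and strain, so the data hold no contrast between conditions, and the peak lists do not separate the parental alleles. There were 4 peak lists, 1 for pool E, 1 for pool F, 1 pooled and 1 of replicated peaks. As a check of the labelled tissue, 8 of 8 skeletal muscle marker genes were marked by H3K4me3, against 0 of 4 hepatocyte, 0 of 3 neuronal, 0 of 4 cardiac and 0 of 4 lymphocyte markers.

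H3K4me3 is a methylation of histone H3 that is deposited around the start sites of genes in an active or poised state. Ribosomal proteins are made in near-equal amounts to build the small subunit, which decodes the mRNA, and the large subunit, which forms the peptide bond. Many of their mRNAs begin with a C followed by a tract of pyrimidines, the 5′ terminal oligopyrimidine (TOP) tract, through which the mTOR pathway controls their translation. Their genes are short, are found on most chromosomes, and often carry small nucleolar RNAs (snoRNAs), guides of ribosomal RNA modification, in their introns. Rpl3l is a paralogue of Rpl3 that is made in striated muscle, and Rpl10l and Rpl39l are paralogues made in male germ cells of the mouse.

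The promoters are shown first, at their RefSeq start sites. The mark is measured below from GENCODE start sites unless RefSeq is named, and the 2 annotations can differ. In Rpl35 the printed start is at position 39005131 and the main GENCODE start at 39005624. RefSeq promoter windows (assembly GRCm38.p6, the build mm10) matched 66 of the 86 members by symbol, with 78 start sites. In each line the 60 bases before the start site are followed by the start site and the next 19 bases, 5′ to 3′ on the strand of the gene. Capitals mark a run of C or T that begins at the start site, and any match to a motif searched. The first set shows starts with a long pyrimidine run. Rps6, the small-subunit protein that S6 kinases phosphorylate, also carries the palindrome that the factor BANP binds, the capitals upstream of its run, and in Rpl35a the run is continued by GCCATCTT, the reverse complement of the YY1 motif.
Rpl27a, chr7:109519135-109519214, plus strand: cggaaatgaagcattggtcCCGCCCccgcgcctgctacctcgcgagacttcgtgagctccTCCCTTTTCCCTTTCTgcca
Rpl15, chr14:18270967-18271046, minus strand: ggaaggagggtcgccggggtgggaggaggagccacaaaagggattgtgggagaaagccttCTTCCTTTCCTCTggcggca
Rpl35, chr2:39005112-39005191, minus strand: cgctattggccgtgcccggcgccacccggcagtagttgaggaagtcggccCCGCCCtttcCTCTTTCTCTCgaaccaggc
Rps10, chr17:27635225-27635304, minus strand: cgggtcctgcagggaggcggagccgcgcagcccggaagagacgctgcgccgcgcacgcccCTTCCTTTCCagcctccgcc
Rps18, chr17:33955646-33955725, minus strand: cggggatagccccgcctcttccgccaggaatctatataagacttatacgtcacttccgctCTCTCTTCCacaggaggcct
Rps6, chr4:86857348-86857427, minus strand: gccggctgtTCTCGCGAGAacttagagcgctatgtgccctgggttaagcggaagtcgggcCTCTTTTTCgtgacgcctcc
Rpl35a, chr16:33056422-33056501, plus strand: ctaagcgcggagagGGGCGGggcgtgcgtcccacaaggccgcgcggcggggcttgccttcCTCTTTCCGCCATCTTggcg

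The second set shows other motifs, at annotated start sites where no such run begins. These are the palindrome in Rps19 and Rpl12 (with a GC box in Rpl12), an ETS motif and a GC box in Rpl37, and 2 overlapping TATA boxes, which lie on opposite strands, in Rpl22l1. In Rpl12 and Rpl22l1 a C followed by at least 4 pyrimidines begins within 5 bases of the annotated start.
Rps19, chr7:24884532-24884611, plus strand: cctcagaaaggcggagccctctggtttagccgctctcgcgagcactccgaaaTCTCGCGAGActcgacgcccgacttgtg
Rpl12, chr2:32961652-32961731, plus strand: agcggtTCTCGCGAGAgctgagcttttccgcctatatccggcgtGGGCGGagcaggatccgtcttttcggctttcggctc
Rpl37, chr15:5116553-5116632, plus strand: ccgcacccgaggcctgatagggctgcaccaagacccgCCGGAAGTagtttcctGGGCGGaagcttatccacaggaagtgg
Rpl22l1, chr3:28805448-28805527, plus strand: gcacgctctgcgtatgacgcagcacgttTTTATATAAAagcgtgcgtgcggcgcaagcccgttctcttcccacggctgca

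The third set shows the muscle paralogue Rpl3l and the 3 members that had no H3K4me3 peak. Of these, Rps27rt begins with a pyrimidine run.
Rpl3l, chr17:24727766-24727845, plus strand: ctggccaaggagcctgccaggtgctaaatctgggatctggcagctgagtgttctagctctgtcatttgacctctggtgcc
Rpl10l, chr12:66284382-66284461, minus strand: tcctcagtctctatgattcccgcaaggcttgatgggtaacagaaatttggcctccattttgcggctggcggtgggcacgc
Rpl39l, chr16:10170168-10170247, plus strand: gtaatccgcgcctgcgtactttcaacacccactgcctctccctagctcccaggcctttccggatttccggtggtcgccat
Rps27rt, chr9:114982720-114982799, minus strand: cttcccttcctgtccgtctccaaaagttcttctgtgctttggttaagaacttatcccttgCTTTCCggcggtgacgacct

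A C at the annotated start site followed by at least 4 pyrimidines was found in 14 of the 66 members (21.2%), against 2.73% of 16432 protein-coding genes in the same table and 2.95% of the 11592 of them with H3K4me3. When the start site was moved by up to 5 bases either way, 30 members (45.5%) had such a start, against 21.9% of all genes and 23.7% of marked genes. The first base was C in 33.3% of members and 16.5% of all genes, and A in 21.2% of members and 41.4% of all genes. The longest run from a member's start site was 16 bases, in Rpl27a, which begins with a T and so is not among the 14.

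Motifs were searched as exact matches on both strands of the 300-base windows. The BANP palindrome, as capitalised in the windows of Rps6, Rps19 and Rpl12, was in 9.09% of members, against 0.773% of all genes and 1.04% of marked genes. The ETS motif CCGGAAGT was in 18.2% of members, against 5.97% of all genes and 8.09% of marked genes. The YY1 motif AAGATGGC was in 9.09% of members, against 3.64% of all genes and 4.67% of marked genes. The other motifs were nearer the background. The GC box GGGCGG was in 62.1% of members, against 51.3% of all and 68% of marked genes. The TATA box TATAAA was in 10.6% of members, against 14.3% of all and 8.92% of marked genes, and the E-box CACGTG was in 9.09% of members, against 9.22% of all and 11.4% of marked genes. The median GC content was 58.2% in the members' windows and 57% over all windows, and the median observed over expected CpG ratio was 0.865 in members and 0.591 over all. These shares describe letters in a window and were not tested.

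**Figure D1:**
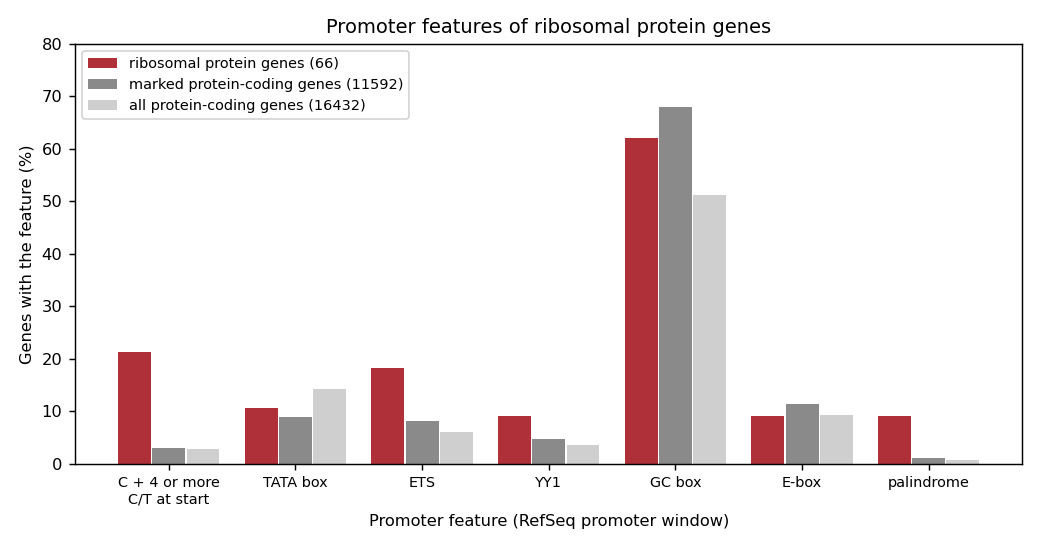
Share of genes (%) with each promoter feature in the RefSeq windows, for 66 ribosomal protein genes (red), 11592 marked protein-coding genes (dark grey) and 16432 protein-coding genes (light grey). The pyrimidine start was in 21.2% of ribosomal protein genes and 2.73% of all genes, while the E-box was in 9.09% and 9.22%.

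Marked genes were those with at least 1 peak no more than 1000 bp away from an annotated GENCODE transcription start site (TSS). In the replicated list 83 of 86 members (96.5%) were marked, beside 69.3% of all protein-coding genes. The members marked in pool E (83, beside 69.3% of all genes) and in pool F (83, beside 68.9%) were the same genes, so 83 were marked in both pools, beside 68.6% of all genes. The pooled list also marked these 83, beside 69.5% of all genes. All 77 genes for core proteins of the large subunit, the small subunit and the stalk were marked. The strongest peak of each of the 83 marked members covered a TSS, so none depended on the 1000 bp limit. In 72 members 1 peak lay in the window, in 9 members 2 peaks did, and in 2 members 3 or more did.

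The 3 unmarked members were paralogues. Rpl10l, the germ-cell paralogue of X-linked Rpl10, lay 936004 bp from the nearest peak in the replicated list. Rpl39l, the germ-cell paralogue of Rpl39, lay 22277 bp from the nearest peak. Rps27rt, a retrogene of Rps27, lay 3079 bp from the nearest peak, which makes it the member nearest to the limit from outside, and the distance was 3110 bp for pool E and 2829 bp for pool F. Copies elsewhere in the genome were searched for the promoter windows, the 250 bases before the start site and the 50 from it on. Transcribed sequence beyond these 50 bases was not searched. Whether copied sequence bears on the absent peaks was therefore not tested. The longest stretch of at least 90% identity elsewhere was 50 bp in Rps27rt and 54 bp in Rpl10l, none was found for Rpl39l, and among all 66 matched members only Rpl37a had a copy of 200 bp or more.

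Pseudogenes were seldom marked. Of 307 pseudogenes named for a ribosomal protein, 12 were marked (3.91%), beside 299 of 9849 processed pseudogenes (3.04%). Of the 263 that lay over 5000 bp from a coding TSS, 8 were marked (3.04%), a share like that of all processed pseudogenes. The strongest, Rpl29-ps2 with a signal value of 40.9 and Rpl30-ps3 with 40.1, lay within that distance. Rps4l, a copy of X-linked Rps4x that GENCODE types as a transcribed processed pseudogene, had a peak over its start with a signal value of 12.8 and a domain of 977 bp. The 6 pseudogene symbols that GENCODE types as protein-coding were all without a peak.

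For each marked gene the signal value was that of the highest peak near a TSS. It is the authors' own value, with no stated scale, so it is compared here only within a list. Peaks at most 1000 bp apart were joined into a domain, and the widest domain near a TSS gave the gene's width. In this bulk tissue, fewer cells with the mark and less of it per cell cannot be told apart. The median signal value of the 83 marked members was 51.8 (interquartile range 44.0 to 58.4), and that of all 15067 marked protein-coding genes was 45.3 (31.7 to 54.7). The members ran from 29.0 in Rplp1 to 62.2 in Rps24, while the highest value of any gene was 64.1. The value of Rps24 came from a separate upstream peak, and at its main start site, defined below, it was 29.1. The highest 25% of marked genes held 31 of the 83 members, and the lowest 25% held 2, Rplp1 and Rps15. The counts were 32 and 2 in pool E and 32 and 0 in pool F. The median member stood at the 65.5th percentile of signal value in the replicated list, at the 66.2nd in pool E and at the 69.7th in pool F.

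The median domain of members was 2767 bp wide (2348 to 3204), and that of all marked genes was 2400 bp (1736 to 3534). The members' interquartile range was thus narrower, and 58 of the 83 members were above the median width of marked genes. The widest 25% of marked genes held 15 members and the narrowest 25% held 2, Rplp0 and Rps19bp1. The domain was 1 peak in 75 members and joined several in 8. Across the 83 members, signal value and width were nearly unrelated by rank (Spearman's rho −0.12), whereas rho was 0.39 across all marked genes. Gene length and width had a rho of 0.11 across members. These are descriptions over genes that share the same libraries.

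**Figure D2:**
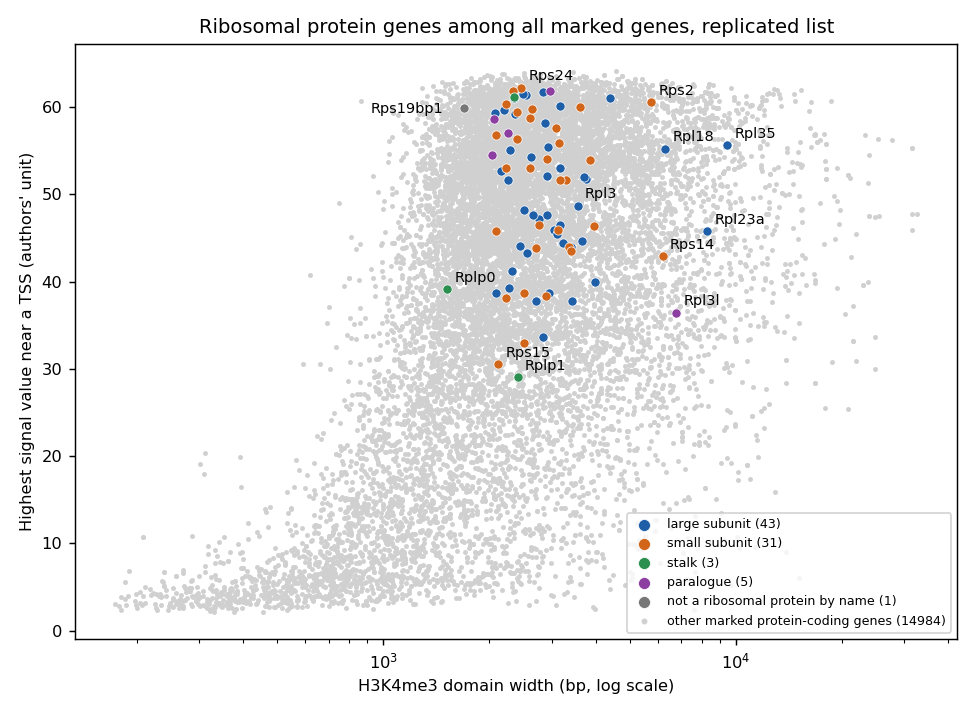
Highest signal value near a TSS (authors' unit) against domain width (bp, log scale) in the replicated list, for 83 marked ribosomal protein genes coloured by role and 14984 other marked protein-coding genes in grey. The members lie in a band from 29.0 to 62.2 with its median at 2767 bp, and Rpl35, Rpl23a, Rpl3l, Rpl18, Rps14 and Rps2 lie to its right.

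Other gene sets of protein synthesis and turnover were mostly marked too. All 78 mitochondrial ribosomal protein genes were marked, and their signal values ran from Mrps7 (27.7) to Mrps36 (63.3) around a median of 52.4, over domains of 2142 bp at the median. Of 48 proteasome subunit genes 47 were marked, with medians of 48.3 and 2534 bp. The exception was Psmb11, the thymus subunit, and the lowest marked one was Psma8, the testis subunit, at 3.36. All 33 translation initiation genes (medians 53.1 and 2900 bp) and all 9 elongation genes (54.1 and 3909 bp) were marked, and the widest of the elongation genes was Eef1a2, the elongation factor isoform of muscle and neurons, at 13798 bp. All 29 ribosome biogenesis genes (48.4 and 2534 bp) and all 13 RNA polymerase I transcription genes (52.0 and 2217 bp) were marked. The symbol rule misses Fau, which encodes a ribosomal protein fused to a ubiquitin-like protein, and Rack1, a scaffold on the small subunit. Both were marked, with signal values of 30.3 in Fau and 54.0 in Rack1 and widths of 2683 bp in Fau and 4086 bp in Rack1. On signal value the cytosolic members thus stood close to the mitochondrial ones, and their median domain was wider. None of these differences between lists was tested.

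**Figure D3:**
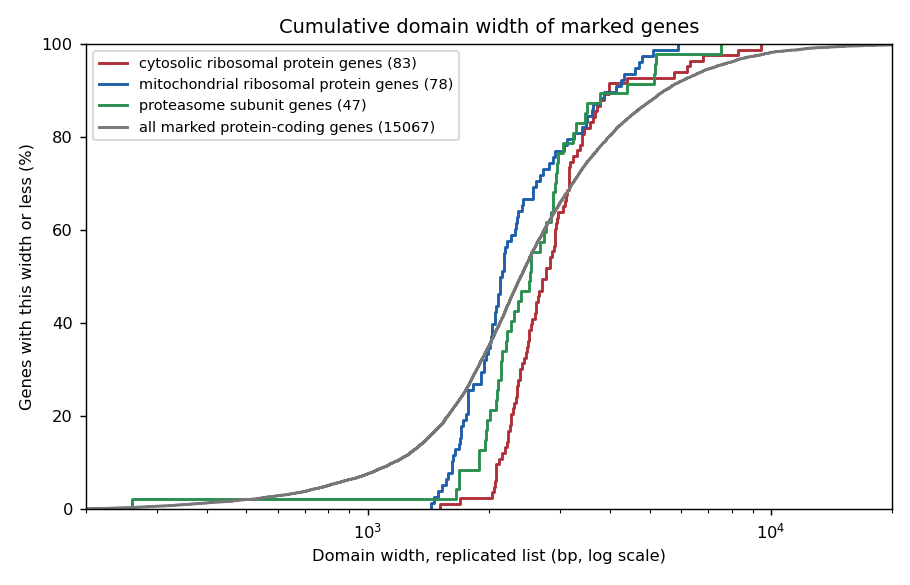
Cumulative share (%) of marked genes by domain width (bp, log scale) in the replicated list, for 83 cytosolic ribosomal protein genes, 78 mitochondrial ribosomal protein genes, 47 proteasome genes and all 15067 marked protein-coding genes. The curve of the cytosolic genes crosses the middle at 2767 bp, to the right of the mitochondrial (2142 bp) and proteasome (2534 bp) curves and of all marked genes (2400 bp).

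Among the large-subunit genes the median signal value was 48.7, from Rpl6 (33.7) to Rpl22 (61.7), and the median width was 2868 bp. Rpl22 was followed by Rpl5 (61.5), whose protein with Rpl11 and 5S rRNA forms the particle that binds Mdm2, and by Rpl17 (61.4). Rpl11 itself stood at 55.1. Rpl21 was low at 37.8. The narrowest large-subunit domain was that of Rpl36 (2075 bp), which still covered the whole of this gene of 828 bp. The widest domains of large-subunit genes in the replicated list were those of Rpl35 (9431 bp) and Rpl23a (8295 bp), both for proteins near the exit of the peptide tunnel, followed by Rpl18 (6294 bp).

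Among the small-subunit genes the median signal value was 53.0 and the median width 2709 bp. Rps24 had 62.2, against 30.5 in Rps15 and 32.9 in Rps21. Rpsa, which was first known as a laminin receptor, had 59.7 and a domain of 2639 bp. The narrowest domain was that of Rps26 (2081 bp), a protein near the mRNA exit, and the widest were those of Rps14 (6203 bp) and Rps2 (5741 bp). The value of Rps24 came from a separate peak at an upstream start. At its main start site, the cluster of TSSs with most coding transcripts, Rps24 had 29.1 (22.7th percentile), and it stood at the 23.3rd percentile there in pool F and at the 42.6th in pool E. The same choice gave 42.03 and 2941 bp for Rps14. The domain of 6203 bp given above for Rps14 ended at position 60751023, upstream of its main start at 60774596. Rpl17 was left unmarked by this choice, since its peak begins just over 1000 bp from its main start. Thus 82 members were marked at main start sites.

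The stalk proteins form the flexible arm of the large subunit that recruits elongation factors, and their genes differed among themselves. Rplp2 had a signal value of 61.2 (95.6th percentile), Rplp0 39.2 (37.4th) and Rplp1 29.0 (22nd), the last being the lowest of all members. Rplp1 was also low within each pool, at the 24.9th percentile in pool E and the 26.4th in pool F. Their domains were 2347 bp in Rplp2, 1516 bp in Rplp0 and 2408 bp in Rplp1, so the gene with the lowest signal value was not the narrowest.

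Rps19bp1, which the rule takes in by symbol, had a high signal value of 59.9 (91.3rd percentile) over a narrow domain of 1698 bp (23.8th percentile). The 4 X-linked members had 37.8 (Rpl10), 38.7 (Rpl36a), 46.0 (Rps4x) and 46.4 (Rpl39). Their median of 42.3 was below the 52.0 of the autosomal members, and all X-linked marked genes had a median of 36.8 against 45.6 for autosomal ones. The 4 X-linked members thus lay above the median of their chromosome, and the median of the autosomal members lay above that of autosomal genes. Their median width was 3147 bp.

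The 8 paralogues are given beside the genes they resemble. Rpl7l1, a nucleolar protein of ribosome assembly, had a signal value of 58.6 and a width of 2063 bp, and Rpl7 had 61.0 and 4394 bp. Rpl22l1 had 54.5 and 2033 bp, and Rpl22 had 61.7 and 2841 bp. Rpl36al had 61.8 and 2966 bp, and X-linked Rpl36a had 38.7 and 2082 bp. Rps27l, a p53 target, had 57.0 and 2256 bp, and Rps27 had 60.02 and 3622 bp. In the replicated list the paralogue thus had the lower signal value and the narrower domain in 3 of these 4 pairs, and Rpl36al was the exception on both. The domains of Rpl7 (with Rdh10), Rps27 (with Rab13) and Rpl36al (with Mgat2) also held a TSS of a gene on the opposite strand. Those of Rpl7l1, Rps27l and Rpl36a held no other coding TSS, and neither did those of Rpl22 and Rpl22l1. Whether this bears on the differences was not tested. In pool F Rps27l was above Rps27 in signal value, at 57.1 against 56.0. Rpl10l, Rpl39l and Rps27rt had no peak, and Rpl10 had 37.8 and 3437 bp, Rpl39 46.4 and 3165 bp, and Rps27 the values above.

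Rpl3l, on chromosome 17 at positions 24727820 to 24736143 of mm10 (plus strand), was marked in every list. Its signal value was 36.4 in the replicated list (32.4th percentile), 40.4 in pool E (33.4th) and 33.5 in pool F (30.8th). Its rank was thus alike in both pools and in the lower part of the members. Its domain was 6775 bp wide in the replicated list (94.1st percentile), 7131 bp wide in pool E and 6691 bp wide in pool F, and in the replicated list only Rpl35 and Rpl23a were wider. The domain covered 80.8% of the gene.

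Rpl3, on chromosome 15 at positions 80077791 to 80091868 (minus strand), had a domain of 3560 bp in the replicated list, 3477 bp wide in pool E and 3544 bp wide in pool F. Rpl3l was therefore wider than Rpl3 in all 3 lists, and the lists of a gene differed by less than the genes did. The size of the gap depended on how peaks were joined, since Rpl3l was 4743 bp wide with no joining across gaps and 10738 bp with joining across up to 2500 bp, while Rpl3 stayed at 3560 bp. At the main start site of Rpl3 the signal value was 45.8 in the replicated list, 47.4 in pool E and 42.5 in pool F, so Rpl3l was below Rpl3 in each list. The higher gene-level value of Rpl3, 48.7, came from a separate peak of 1756 bp at a TSS far upstream. With 1 list per pool there is no test of the pair.

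The shape of the mark also differed between both genes. The main peak of Rpl3l, 4743 bp long at positions 24727772 to 24732514, began 48 bp upstream of the start site and reached 4694 bp downstream, with its summit 698 bp into the gene. In pool E the peak reached 409 bp upstream and 4711 bp downstream with its summit at 741 bp, and in pool F it reached 53 bp and 4620 bp with its summit at 685 bp. A second peak of 1824 bp with a signal value of 4.77 followed after a gap of 208 bp and is part of the domain. It lay 38 bp from another annotated start site of Rpl3l, at position 24732685, so the domain joins peaks at different start sites. The peak of Rpl3 reached 933 bp upstream and 2626 bp downstream, with its summit at 246 bp. In each of the 3 lists Rpl3l had the longest downstream reach of the 82 members with a peak at the main start, and the next in the replicated list was Rps2 at 4468 bp, whose peak also holds the start of Ndufb10.

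The promoter of Rpl3l, printed above, held few CpGs. The observed over expected CpG ratio was 0.0892 at the printed start site and 0.134 at its other RefSeq start site. The higher ratio of each member was compared. That of Rpl3l was the lowest of the marked members in the promoter table, and the next was Rpl6 at 0.421. Rpl3l was the only marked member under 0.2. In all, 490 marked protein-coding genes had a ratio under 0.2, with domains of 1869 bp at the median (953 to 3560) and signal values of 21.2 (7.37 to 39.1), and 36 of them had a wider domain than Rpl3l.

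Around the main start site, the strongest peak reached further downstream than upstream in 78 of 82 members. Distances were counted from the most upstream TSS of the main cluster. In 82 members the strongest peak reached a median of 808 bp upstream (610 to 1066) and 1836 bp downstream (1553 to 2176), with the summit at a median of 248 bp downstream. The medians were 835, 1852 and 238 bp for pool E, and 780, 1752 and 253 bp for pool F. In 78 of the 82 the summit lay downstream of the start site, and the exceptions were Rpl7 (−888 bp), Rpl36al (−317 bp), Rpl30 (−217 bp) and Rpl12 (−93 bp). Of these, Rpl12 had its summit 461 bp downstream in pool F.

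For a comparison with other genes, those with a single RefSeq start site were taken. The start site lay in a domain for 53 of 56 such members (94.6%) and for 62.8% of 13741 protein-coding genes. The domain reached a median of 861 bp upstream in members and 770 bp in all such genes. Downstream it reached 1861 bp (1548 to 2166) in members and 1432 bp (1033 to 2216) in all. It was longer downstream than upstream in 50 of 53 members (94.3%) and in 81.5% of all such genes. The summit lay downstream of the RefSeq start in 49 of 52 members (94.2%), beside 83.9% of all genes, at a median distance of 225 bp in members and 184 bp in all.

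**Figure D4:**
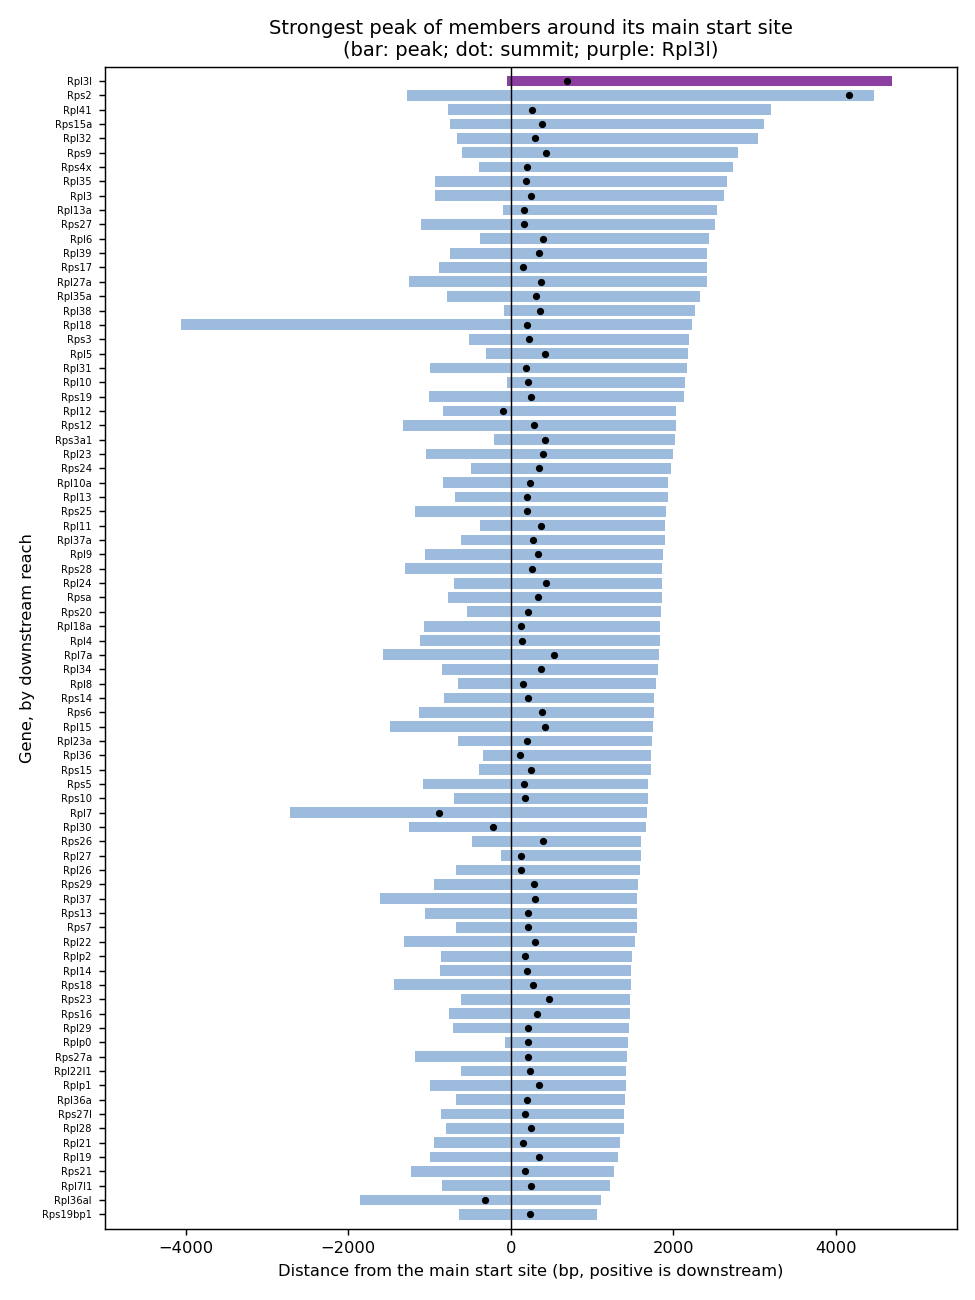
Extent of the strongest peak (bar) and its summit (dot) around the main start site of members in the replicated list (80 of the 82 are drawn), in bp with positive values downstream, ordered by downstream reach. Rpl3l (purple) begins 48 bp before the start site and reaches 4694 bp past it, against medians of 808 bp upstream and 1836 bp downstream.

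Many members are short genes, and the domain covered much of their length. The median length of the 83 marked members was 3368 bp, and that of all marked genes was 24703 bp. The domain covered a median of 61.0% of a member (40.8 to 77.6%) and 6.38% of a marked gene in general. Among genes of 1000 to 10000 bp the median share was 61.9% in 78 members, with a median length of 3266 bp, and 29.7% in 3543 marked genes, with a median length of 5309 bp. A domain covered the whole gene in 9 members (10.8%), beside 3.03% of marked genes, but among genes of 1000 to 10000 bp the shares were close, at 10.3% of members and 9.79% of marked genes. The 9 members include Rpl23a, Rpl36, Rpl41, Rps15, Rps21, Rps27, Rps29 and Rplp1. The members hold 58 snoRNA genes in 30 host genes, and 37 of these snoRNAs, in 24 hosts, lay under the host's domain. No such count was made for other host genes, and the domain covered a median of 61.0% of a member's length in any case.

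Neighbouring genes lay within some of the domains. In 20 of the 83 members the domain held a TSS of another protein-coding gene (24.1%), beside 20.9% of marked genes. The other gene was on the opposite strand in 17 members, on the same strand in 2 and on both in 1. The 2 on the same strand were Zc3h10 in the domain of Rpl41 and RPS10-NUDT3 in that of Rps10. The symbol of the latter includes Rps10 itself, so it may not be a separate neighbour. The median width was 3200 bp in members with such a neighbour and 2537 bp in members without. Over all marked genes these medians were 2863 bp and 2259 bp, so the same direction held in general. The widest of the 20 were Rpl35 (with Arpc5l, a subunit of the Arp2/3 actin nucleator), Rpl23a (with Nek8 and Tlcd1), Rpl18 (with Sphk2, a sphingosine kinase), Rps14 (with Ndst1, an enzyme of heparan sulfate synthesis) and Rps2 (with Ndufb10, a subunit of respiratory complex I). In Rpl35 the domain joined peaks of 3591, 2918 and 2081 bp with signal values of 55.7, 55.2 and 3.36. In Rpl23a it joined the gene's own peak of 2388 bp to that of its neighbours through 2 weak peaks of 285 and 560 bp with signal values of 2.26 and 2.53. The 285-bp peak was not joined in the other lists, which gave Rpl23a 3428 bp (pooled), 3051 bp (pool E) and 3459 bp (pool F), so its place among the widest rested on a weak peak of the replicated list. In Rps2 the single peak had its summit 4159 bp downstream of the start of Rps2.

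Between the pools the set of marked members did not change, and each member's strongest peak in one pool was overlapped by a peak of the other pool, also when the overlap had to cover 50% of it or more. The median width of pool E was 2780 bp, that of pool F 2642 bp. The median difference, pool E minus pool F, was 107 bp (−6 to 300) in members and 112 bp (9 to 280) over all 14930 genes marked in both pools. The domain was wider in pool E for 59 members (71.1%) and wider in pool F for 24, beside 76.8% wider in pool E over all genes. The difference exceeded 500 bp in 11 members (13.3%), beside 14.1% of all genes. It was at most 200 bp in 43 members (51.8%), beside 61.2% of all genes. The members thus followed the direction of the whole list, with a smaller share within 200 bp. By rank, the widths of the 83 members in both pools had a rho of 0.90 and the signal values 0.84, beside 0.97 and 0.91 over all genes.

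The 4 largest differences in width were in members whose pool E domain joined several peaks. Rpl13a had a domain of 8844 bp in pool E, where 4 peaks were joined. In pool F its domain was 3681 bp wide, and in the replicated list 3761 bp. Rps15a was 5924 bp wide in pool E, against 3527 bp in pool F. In pool E its main peak of 3811 bp was joined to weak peaks of 677 and 714 bp with signal values of 3.03 and 3.55. Rpl24 was 4639 bp wide in pool E, against 2548 bp in pool F, again with 2 weak peaks in pool E. Rps4x (3642 bp in pool E, against 2864 bp in pool F) and Rps14 (6528 bp in pool E, against 5750 bp in pool F) both differed by 778 bp. These widths of Rps14 belong to a separate domain, not to the one at its main start site. Its main-start domains were close in size, with 2600 bp for pool E and 2621 bp for pool F.

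In rank of signal value, 62 of the 83 members lay within 10 percentile points in both pools and 3 differed by over 30 points. Rps19, a small-subunit protein that is mutated in human Diamond-Blackfan anaemia, stood at the 99.2nd percentile in pool E and the 54.1st in pool F. Rpl6 stood at the 48th percentile in pool E and the 90.4th in pool F, though at the 27.5th in the replicated list. Rps15 stood at the 22.6th in pool E and the 52.9th in pool F. The low place of Rpl6 and Rps15 in the replicated list was therefore not shared by every list, whereas that of Rplp1 and Rpl3l was.

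**Figure D5:**
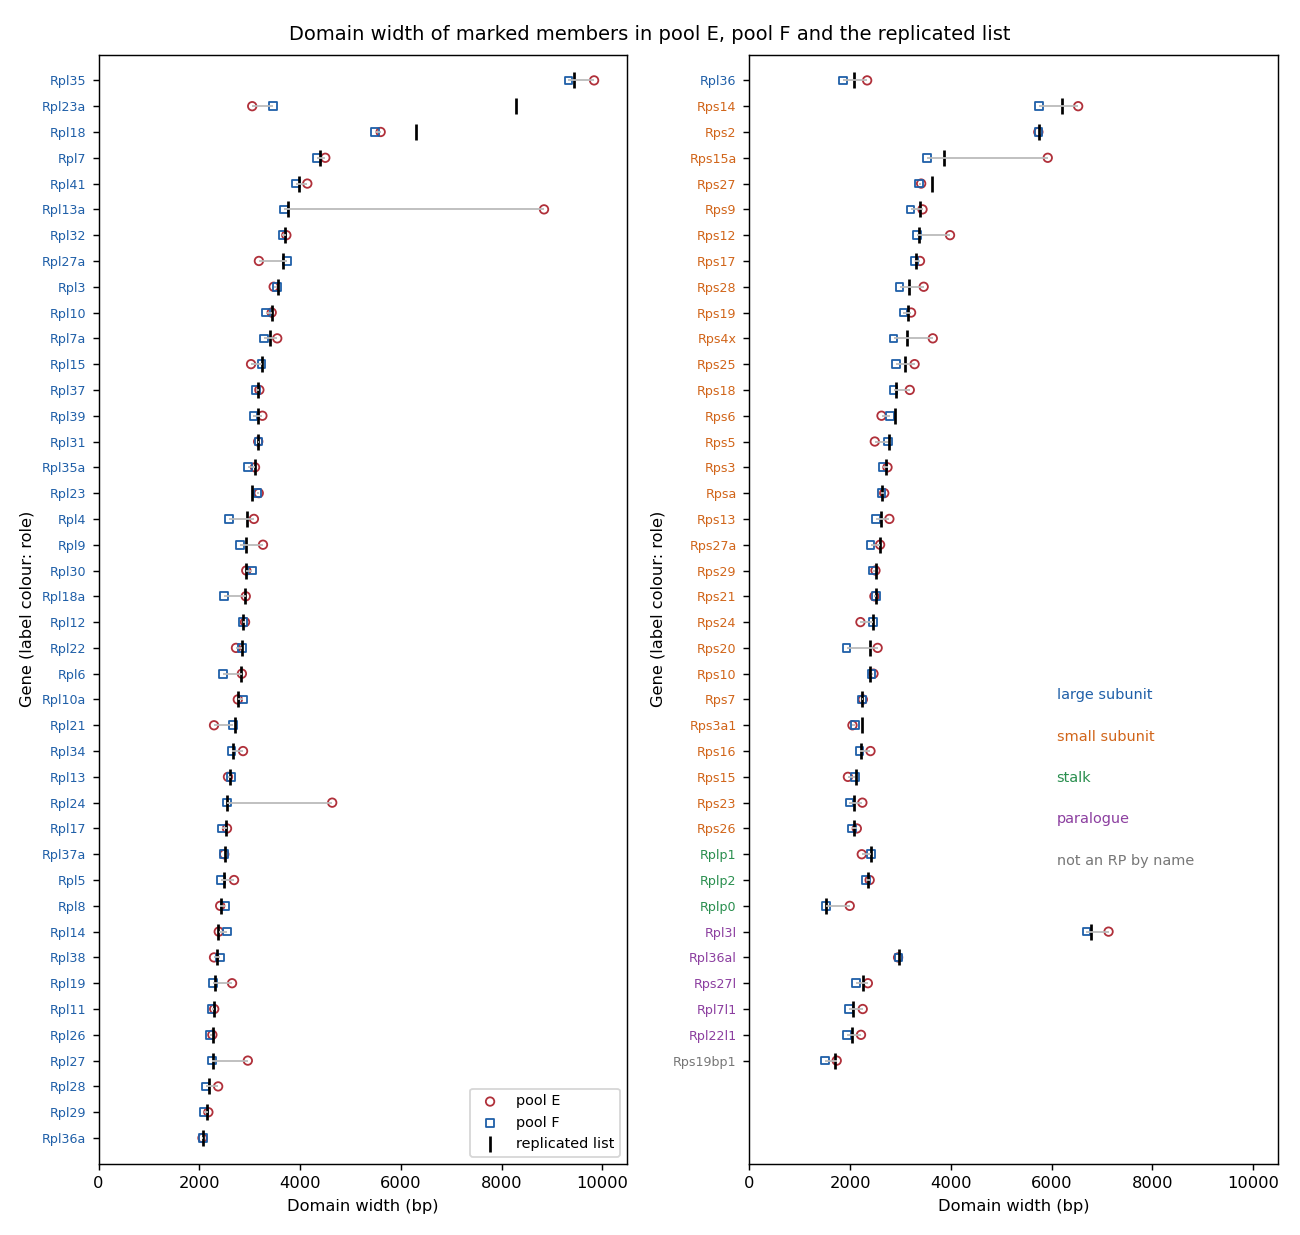
Domain width (bp) of marked members (81 of the 83 are drawn) in pool E (red circles), pool F (blue squares) and the replicated list (black bars), grouped by role and ordered by the replicated width within a role. Of the 83 members, 43 differ by at most 200 bp between the pools. Rpl13a (8844 bp in pool E), Rps15a and Rpl24 are wider in pool E, and the replicated width of Rpl23a (8295 bp) exceeds both pools.

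The promoter features were set beside the mark last. Of the 14 members with a C and at least 4 pyrimidines at the start site 13 were marked, and the median signal value was 55.7 over domains of 2893 bp at the median. The other 52 members in the promoter table had 50 marked, with medians of 51.6 and 2740 bp. The ranges overlapped over most of their length, from 32.9 to 61.2 in members with the run and from 30.5 to 62.2 in the others, and the unmarked member with the run was Rps27rt.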

How the data were processed

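H3K4me3 ChIP-seq of gastrocnemius was taken from 4 peak lists in narrowPeak format on mm10. Per the labels, fragments of 200 to 600 bp were sequenced. Per the text files deposited with the samples, 3 lists (pool E, pool F, both pools) hold pseudoreplicated peaks and 1 holds replicated peaks, with both technical libraries of a pool merged in 1 alignment. Which aligner and caller made them is not given in the sources used here. Signal values, deposited as the authors computed them, have no stated scale. The deposited −log10 q-value of each peak served as a filter, and the authors' display score was not used. No read counts are in the lists, so depth and its precision are unknown.

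Start sites came from GENCODE M21 (93196 TSSs of 21755 genes) and promoters from RefSeq GRCm38.p6. Peaks, domains and promoters were processed with Python 3.11.15, pandas 2.3.3, numpy 2.4.6 and scipy 1.17.1, with copies of promoters searched by blastn, and the steps were tested on simulated data. With 1 list per pool no test was run. The genes named in the text are the unmarked members, the 6 highest and 6 lowest by signal value and by width, the 5 largest pool differences with a tie, the paralogues, the stalk genes and Rpsa. The others, such as Rps19, Rpl11, Rpl30, Rpl7 and Rpl12, were named after their values were seen. The members and gene lists were chosen with earlier results of these data known. Some genes are not reported here.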

Additional observations from a re-analysis of the deposited data

How the results depend on the processing

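The count of 83 marked members was the same with a TSS window of 0 or 2500 bp, TSSs of coding transcripts only, the pooled list, a q-value of at most 0.05 and a −log10 q of at least 5. It was 82 at main start sites, an alternative chosen after seeing the data, 63 of 66 at RefSeq start sites and 77 of 77 without paralogues and Rps19bp1. Leaving out 1 pool in turn used the list of the other pool. The median width was then 2642 to 2780 bp and the median signal value 50.1 to 56.3, and signal values of different lists share no stated scale. The gap at which peaks were joined moved the median width to 2639 bp at 0 bp and to 2931 bp at 2500 bp. A start site moved by up to 5 bases gave 30 members with the pyrimidine start in place of 14. The width of Rpl3l was 4743 bp with a gap of 0 bp, 10738 bp with 2500 bp, 7151 bp in the pooled list and 6691 to 7131 bp with 1 pool left out, and it was wider than Rpl3 in all of these. No paired analysis was possible because the technical libraries of a pool share 1 alignment and 1 list. Without read counts, an absent peak in Rpl10l, Rpl39l, Rps27rt or a pseudogene says only that none was called.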
